A study of Homo sapiens with 6 samples.

Results

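The genes described here are 46 interferon-stimulated genes, chosen by gene symbol from a fixed list and compared between H1155 cells labelled WT and H1155 cells labelled GFI1-KO. All 46 symbols were found among the 58735 genes of the count table. H1155 is a human lung cancer cell line of neuroendocrine large cell type. The sources used here name no interferon or other agent added to the cells of these libraries. Poly-T-selected RNA of 3 WT and 3 GFI1-KO libraries was sequenced. The GFI1-KO cells were made with CRISPR/Cas9 and pairs of single guide RNAs against the GFI1 promoter, and GFP-positive cells were sorted as monoclonal clones. How many clones stand behind the 3 GFI1-KO libraries is not given in the sources used here, so a difference between clones and an effect of the deletion cannot be told apart.

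Interferons are secreted proteins that cells release when they sense viral nucleic acid. Type I and type III interferons bind their receptors and activate the kinases JAK1 and TYK2, which phosphorylate STAT proteins. STAT2 joins IRF9 in a complex that binds the interferon-stimulated response element (ISRE) in the promoters of many genes, whereas interferon gamma acts mainly through STAT dimers at gamma-activated sites (GAS). The proteins made in this way sense foreign RNA and DNA, block translation, trap virions at membranes or tag proteins with ISG15. Many tumor lines transcribe some of these genes without added interferon. GFI1, the gene targeted here, is a zinc finger repressor of hematopoietic cells.

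The counts of GFI1 itself did not fall with the GFI1-KO label. It had 153, 106 and 125 counts in WT and 174, 188 and 170 counts in GFI1-KO, and the groups did not overlap after normalization. On the log2 scale GFI1-KO exceeded WT by 0.31 (standard error 0.12, adjusted p = 0.0273, edgeR quasi-likelihood F test, Benjamini-Hochberg adjusted), and by 0.14 (adjusted p = 0.327) with offsets for GC content and gene length. Without WT library 2 it was 0.21 (adjusted p = 0.147), without WT library 3 it was 0.28 (adjusted p = 0.0633), and without GFI1-KO library 2 it was 0.27 (adjusted p = 0.0927). The paper shows immunoblots of GFI1 protein and lists the GFI1-KO cells as GFI1-negative, whereas the values here are RNA counts. Gene counts do not show which part of GFI1 the reads cover. Every direction given below is therefore that of the libraries labelled GFI1-KO against those labelled WT.

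Library totals lay between 14882914 and 17692882 counts, so that 3 counts, the floor used here, corresponded to between 0.170 and 0.202 CPM (counts scaled to the library total). Pearson's r of log2 of the normalized count plus 1 across the tested genes was between 0.989 and 0.992 within groups. Between groups it was between 0.932 and 0.936. The neuroendocrine markers CHGA, SYP, NCAM1 and INSM1 were abundant in every library. Of 10 blood cell markers, all of leukocytes except the red cell gene HBB, 9 had at most 7 counts in every library. CD3E, MS4A1 and HBB were at 0 throughout. The 10 together summed to between 4.10 and 5.15 CPM in WT and between 3.90 and 4.21 CPM in GFI1-KO. Endothelial markers summed to between 27.7 and 31.1 CPM in WT and between 16.9 and 17.4 CPM in GFI1-KO, most of it PECAM1, while CLDN5 went the other way, from 10, 11 and 9 counts to 48, 64 and 42. The fibroblast markers, mostly COL1A2, summed to between 191 and 196 CPM in WT and between 134 and 139 CPM in GFI1-KO, with DCN at 0 in all libraries. Within that list COL3A1 rose from 2, 3 and 2 counts to 129, 143 and 170 and PDGFRA from 1, 2 and 0 to 17, 16 and 14, whereas PDGFRB fell (log2 fold change -3.24). Whether these shifts bear on the genes described below was not tested.

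Most of the 46 genes were read in these H1155 cells, for which no added interferon is named. Between the groups 19 rose and 13 fell, while the summed level of all members overlapped. No member was at 0 in all 6 libraries. MX2, OASL and XAF1 had at most 3 counts in every library and are at the floor, and OAS2 reached at most 4. Of the 46 members, 40 passed edgeR's filter on low counts, and TRIM22 and IFI44L were not tested either. In TPM, a scale that divides by gene length and so allows levels of different genes to be compared, 26 members reached a mean of 10 in WT and 25 in GFI1-KO. ISG15 was the highest in WT at 215 ± 8.74 TPM (SD, n = 3), followed by IFITM2 at 172 ± 22.8 TPM, IFI16 at 134 ± 4.92 TPM and EIF2AK2 at 106 ± 2.39 TPM. OAS3 followed closely at 99.6 ± 2.86 TPM. In GFI1-KO ISG15 stood at 316 ± 15.8 TPM, IFITM2 at 164 ± 50.1 TPM and IFI16 at 135 ± 1.09 TPM, and the spread of IFITM2 covered the mean of IFI16. The ratio of GFI1-KO to WT in TPM was 0.905 times the ratio in normalized counts (median over members), so TPM serves here for levels between genes and not for small differences between groups.

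Of the 40 tested members, 19 (47.5%) passed as higher in GFI1-KO and 13 (32.5%) as lower, with the threshold set at an adjusted p of 0.05. Among all 17514 tested genes, 36.5% were higher and 35.9% were lower by the same test. Both groups of libraries were thus far apart over the whole transcriptome, and a call alone sets no member apart from other genes. A log2 fold change of at least 1 was reached by 3 members upwards (GBP3, IFI35 and DHX58) and by 3 downwards (IFI44, BST2 and IFITM3), against 10.2% of all tested genes upwards and 7.29% downwards. No overlap of normalized counts between the groups was seen in 35 of the 40 tested members (87.5%), 21 of them higher and 14 lower, against 74.4% of all tested genes. The median log2 fold change was 0.12 over the tested members and 0.00050 over all tested genes. The quartiles were -0.35 and 0.73 for the members and -0.45 and 0.52 for all genes. Changes were mostly small, since 26 of the 32 called members moved by less than 1 on the log2 scale.

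**Figure D1:**
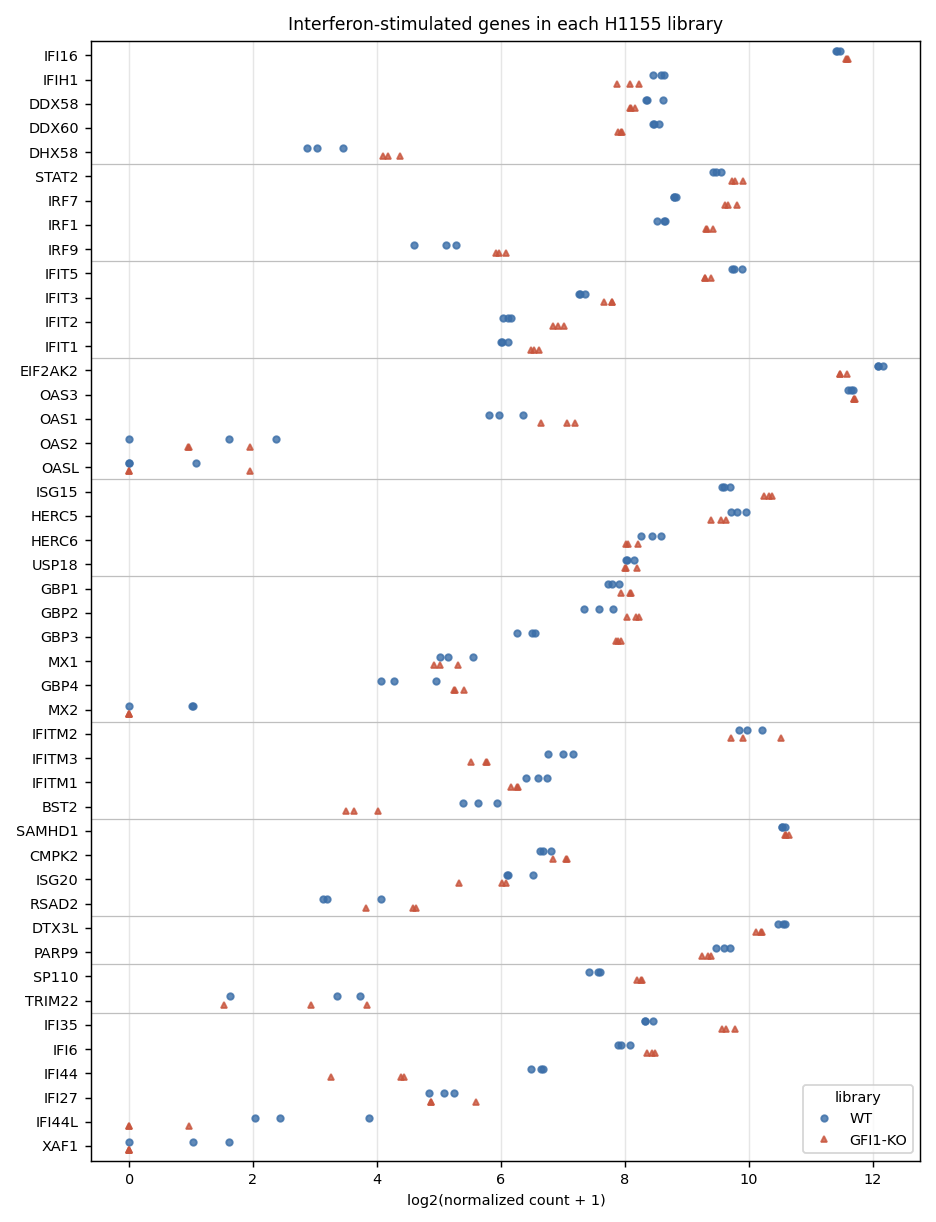
Each symbol is 1 library, with the level as log2 of the normalized count plus 1 on the horizontal axis, circles for WT and triangles for GFI1-KO, and members grouped by role between the grey lines. The groups stand apart for most members, IFI44, BST2, GBP3 and IFI35 show the widest gaps, and MX2, OASL, XAF1 and OAS2 lie at the left edge.

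The sum of all members did not separate the groups. Member counts summed to 1411, 1407 and 1430 CPM in WT and to 1401, 1394 and 1431 CPM in GFI1-KO, and these ranges overlapped. The 5 highest members held between 56.5% and 58.9% of the member counts in WT and between 49.9% and 52.3% in GFI1-KO. As these are bulk libraries, fewer cells that express a gene and less RNA per cell cannot be told apart.

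Fold changes in these libraries went with base composition. Over all tested genes the log2 fold change and GC content had a Spearman's rho of 0.574, and over the 40 tested members rho was 0.179, both given as descriptions since genes of the same libraries are not independent. The median GC content was 43.9% in the members and 48.2% in all tested genes. With offsets for GC content and length fitted to each library, 16 members were higher and 11 lower. Of these, 15 higher and 8 lower calls were shared with the fit without offsets, and ISG15 changed from higher to lower. The share of all tested genes called with the offsets is not given here. For members, values with the offsets are given below wherever they end or turn a call or move it by more than 1.5 times. Whether the trend with GC content arose in the cells or in the libraries was not tested.

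**Figure D2:**
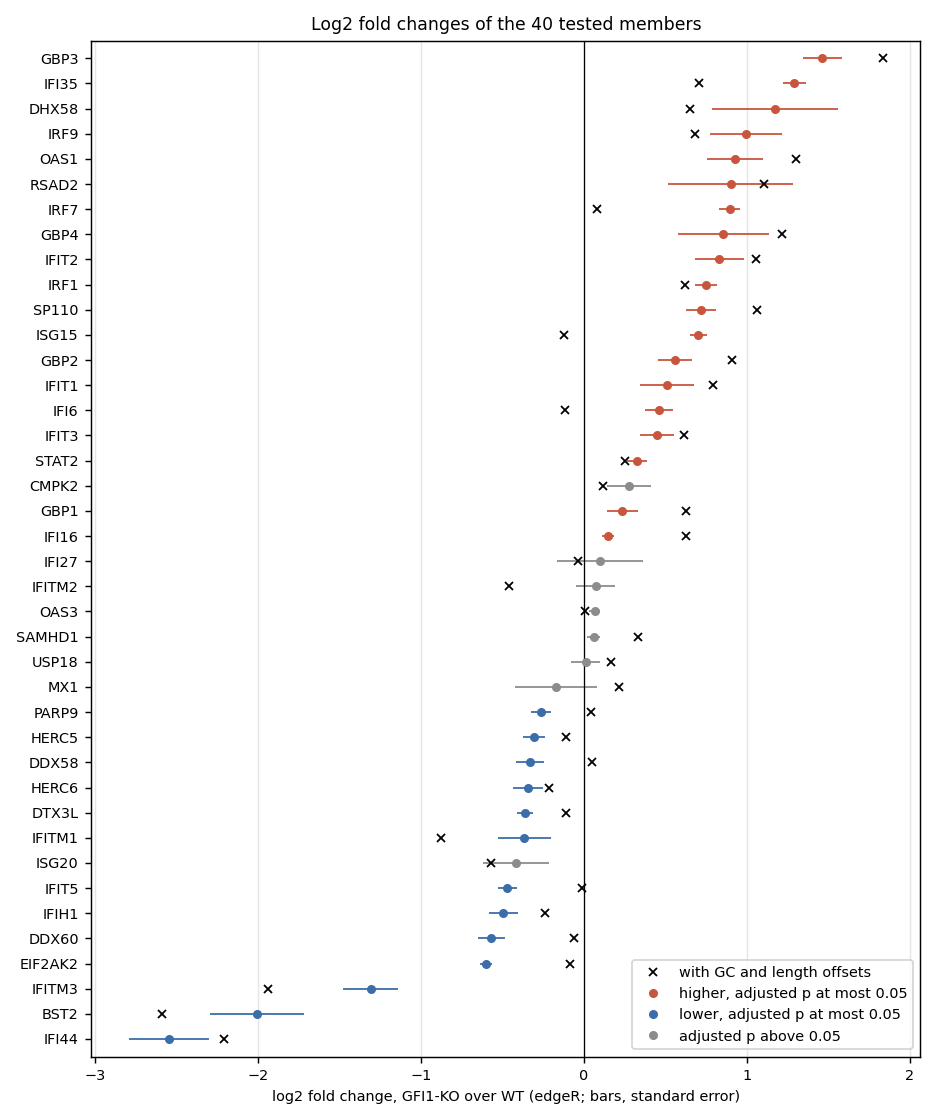
Points are the log2 fold changes (GFI1-KO over WT) of the 40 tested members from edgeR, bars are standard errors, colours give the call, and crosses are the values with offsets for GC content and gene length. GBP3 and IFI44 mark the ends of the range at 1.46 and -2.55, and the crosses of ISG15, IFI6, IRF7, IFIT5, DDX60 and EIF2AK2 lie near 0.

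IFI44 fell most of the tested members. IFI44 (ENSG00000137965, chromosome 1, 78649796 to 78664078, plus strand) is an interferon-induced cytoplasmic protein. It had 97, 80 and 97 counts in WT and 9, 21 and 22 counts in GFI1-KO, so that every WT library lay well above every GFI1-KO library. IFI44 averaged 96.6 ± 7.04 normalized counts in WT and 16.4 ± 6.78 in GFI1-KO (SD, n = 3 each), 5.85-fold lower (log2 fold change -2.55, standard error 0.24, adjusted p = 5.47e-10, edgeR). Its neighbour and paralog IFI44L had 3, 4 and 13 counts in WT and 0, 1 and 0 counts in GFI1-KO. That gene was too low to be tested, its 20 pooled WT counts against 1 gave a WT to GFI1-KO ratio of 22.6 with a 95% counting interval of 3.62 to 937, and WT library 3 alone held 13 of the 20. Both genes of this locus on chromosome 1 were thus read less in GFI1-KO, and for IFI44L this rests on few counts.

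BST2 and IFITM3 were the other tested members that fell by more than 1 on the log2 scale, and both act at membranes. BST2 (tetherin, ENSG00000130303, chromosome 19, 17402939 to 17405648, minus strand) holds budding virions at the cell surface. It had 59, 37 and 46 counts in WT and 16, 12 and 11 in GFI1-KO, with no overlap. BST2 averaged 49.9 ± 9.82 normalized counts in WT and 12.3 ± 2.58 in GFI1-KO (SD, n = 3 each), 4.03-fold lower (log2 fold change -2.01, standard error 0.29, adjusted p = 6.91e-07, edgeR). IFITM3 (ENSG00000142089, chromosome 11, 319669 to 327537, minus strand) hinders the fusion of viruses with endosomal membranes. It had 124, 129 and 102 counts in WT and 47, 56 and 57 in GFI1-KO, again with no overlap. IFITM3 averaged 126 ± 17.9 normalized counts in WT and 50.5 ± 4.96 in GFI1-KO (SD, n = 3 each; log2 fold change -1.31, standard error 0.17, adjusted p = 1.11e-07, edgeR). With the GC and length offsets the fall of both was larger, at -2.59 for BST2 and -1.94 for IFITM3.

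The remaining membrane factors moved less, and the locus they share is difficult to count. IFITM1 had 104, 87 and 80 counts in WT and 74, 81 and 80 in GFI1-KO (log2 fold change -0.37, adjusted p = 0.0437, edgeR). This call was kept in 1 of the 6 fits with a library left out. Without WT library 1 it was -0.28 (adjusted p = 0.162), without WT library 2 -0.37 (0.0687), without GFI1-KO library 1 -0.33 (0.113), without GFI1-KO library 2 -0.39 (0.0645) and without GFI1-KO library 3 -0.37 (0.0759). DESeq2 did not call it (adjusted p = 0.0924), and with the GC and length offsets it was -0.88 (adjusted p = 3.75e-05). IFITM2, the most abundant gene of the family, had 1154, 826 and 953 counts in WT and 884, 1007 and 1551 in GFI1-KO. Its GFI1-KO library 3 lay above every other library and the normalized count of GFI1-KO library 1 lay below every WT library, so that the GFI1-KO libraries spanned the WT range. IFITM2 averaged 1032 ± 136 normalized counts in WT and 1085 ± 329 in GFI1-KO (SD, n = 3 each; log2 fold change 0.07, standard error 0.12, adjusted p = 0.599, edgeR). The direction of IFITM2 was turned by the offsets, to -0.46 (adjusted p = 0.00209), and by leaving out GFI1-KO library 3, to -0.20 (adjusted p = 0.033). In the deposited annotation the end of IFITM2 overlaps IFITM1. Of the 50-base words of their transcripts, 25.2% in IFITM1, 20.8% in IFITM2 and 30.8% in IFITM3 also occur in other genes, so reads may have been split among them.

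GBP3 rose most of the tested members, and GBP1, GBP2 and GBP4 rose too. Guanylate-binding proteins are large dynamin-like GTPases that coat intracellular pathogens, and GBP1 to GBP4 lie side by side on chromosome 1 between 89006666 and 89198932. GBP3 (ENSG00000117226, 89006666 to 89022894, minus strand) had 88, 84 and 72 counts in WT and 249, 259 and 245 in GFI1-KO. GBP3 averaged 86.2 ± 9.33 normalized counts in WT and 238 ± 7.44 in GFI1-KO (SD, n = 3 each), 2.76-fold higher (log2 fold change 1.46, standard error 0.12, adjusted p = 2.24e-11, edgeR). GBP4 rose from 18, 27 and 15 counts to 39, 39 and 44 (log2 fold change 0.86, adjusted p = 0.00798). GBP2 rose from 187, 146 and 213 counts to 302, 277 and 319 (log2 fold change 0.56, adjusted p = 3.89e-05). In all 4 genes no GFI1-KO library fell within the WT range of normalized counts.

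GBP1 (ENSG00000117228, 89052319 to 89065360, minus strand) showed the smallest rise of these 4 genes. It had 234, 199 and 200 counts in WT and 288, 259 and 286 in GFI1-KO, or 223 ± 15.1 against 263 ± 15.4 normalized counts (SD, n = 3 each). The difference was 0.24 on the log2 scale (standard error 0.09, adjusted p = 0.0272, edgeR), whereas DESeq2 did not call it (adjusted p = 0.0823). Without WT library 2 the value was 0.22 (adjusted p = 0.0679), without WT library 3 0.18 (0.109), without GFI1-KO library 1 0.21 (0.0877) and without GFI1-KO library 3 0.22 (0.0743). With the GC and length offsets GBP1 stood at 0.63, GBP2 at 0.91 and GBP3 at 1.84. Of the other dynamin-like GTPases, MX1 did not pass and MX2 was not tested. MX1, which traps viral nucleocapsids, had 45, 31 and 30 counts in WT and 33, 31 and 41 in GFI1-KO with overlapping groups (log2 fold change -0.17, adjusted p = 0.547). MX2 had 1, 0 and 1 counts in WT and none in GFI1-KO.

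IFI35 was the other abundant member that more than doubled. IFI35 (ENSG00000068079, chromosome 17, 43006725 to 43014456, plus strand) is a leucine zipper protein that binds NMI. It had 341, 288 and 305 counts in WT and 829, 923 and 804 in GFI1-KO, with a wide gap between the groups. IFI35 averaged 329 ± 17.2 normalized counts in WT and 807 ± 60.8 in GFI1-KO (SD, n = 3 each; log2 fold change 1.29, standard error 0.07, adjusted p = 7.53e-15, edgeR), and 0.71 (adjusted p = 3.71e-09) with the GC and length offsets. IFI6, which limits apoptosis and viral replication at the endoplasmic reticulum, had 263, 213 and 232 counts in WT and 342, 378 and 368 in GFI1-KO. The rise of IFI6 (log2 fold change 0.46, adjusted p = 3.15e-05, edgeR) turned to -0.12 (adjusted p = 0.233) with the offsets, and 16.4% of its 50-base words occur in other genes. IFI27 had 32, 25 and 35 counts in WT and 50, 30 and 30 in GFI1-KO and did not pass (log2 fold change 0.10, adjusted p = 0.75). XAF1, which antagonizes inhibitors of apoptosis, had 2, 0 and 1 counts in WT and none in GFI1-KO.

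Promoters are shown for the 2 tested members with the largest rises, the 2 tested members with the largest falls and 1 member at the floor. They are shown because the ISRE and GAS are the letters through which interferon reaches these genes. Sequences are RefSeq promoter windows of GRCh38.p14, from 250 bases before to 50 bases after the annotated start site, read 5′ to 3′ on the strand of the gene. Capitals mark matches to the ISRE core GAAANNGAAA or its reverse complement, where N is any base. The windows are chr19:17405581-17405880 (BST2, minus strand), chr1:78649539-78649838 (IFI44, plus strand), chr1:89022817-89023116 (GBP3, minus strand), chr17:43006534-43006833 (IFI35, plus strand) and chr17:6755796-6756095 (XAF1, plus strand).
BST2: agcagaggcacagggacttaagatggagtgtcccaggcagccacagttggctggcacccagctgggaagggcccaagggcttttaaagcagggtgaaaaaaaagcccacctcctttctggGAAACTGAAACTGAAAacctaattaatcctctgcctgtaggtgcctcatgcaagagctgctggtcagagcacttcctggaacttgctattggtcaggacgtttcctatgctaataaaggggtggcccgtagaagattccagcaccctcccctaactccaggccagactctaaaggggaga
IFI44: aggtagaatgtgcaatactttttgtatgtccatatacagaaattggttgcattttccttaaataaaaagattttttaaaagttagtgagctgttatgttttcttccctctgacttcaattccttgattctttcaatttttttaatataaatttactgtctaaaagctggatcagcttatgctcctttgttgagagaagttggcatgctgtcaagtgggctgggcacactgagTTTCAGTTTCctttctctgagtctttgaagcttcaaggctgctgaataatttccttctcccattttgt
GBP3: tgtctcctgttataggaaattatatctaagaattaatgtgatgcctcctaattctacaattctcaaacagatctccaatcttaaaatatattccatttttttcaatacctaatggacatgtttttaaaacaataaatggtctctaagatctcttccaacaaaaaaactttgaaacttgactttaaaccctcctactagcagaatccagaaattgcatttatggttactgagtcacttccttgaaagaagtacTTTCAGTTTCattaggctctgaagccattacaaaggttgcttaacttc
IFI35: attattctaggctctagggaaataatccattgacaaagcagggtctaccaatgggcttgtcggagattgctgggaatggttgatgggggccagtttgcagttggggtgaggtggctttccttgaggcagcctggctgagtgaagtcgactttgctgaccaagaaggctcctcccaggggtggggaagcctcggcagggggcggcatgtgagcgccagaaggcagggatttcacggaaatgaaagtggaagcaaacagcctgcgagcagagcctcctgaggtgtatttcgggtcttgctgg
XAF1: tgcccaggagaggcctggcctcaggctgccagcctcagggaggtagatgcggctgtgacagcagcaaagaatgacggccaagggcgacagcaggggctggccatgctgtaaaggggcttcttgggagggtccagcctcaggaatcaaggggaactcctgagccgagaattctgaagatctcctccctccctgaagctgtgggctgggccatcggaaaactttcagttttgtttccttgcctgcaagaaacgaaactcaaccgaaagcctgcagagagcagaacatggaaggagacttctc

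BST2 carried 2 overlapping core matches, which start 130 and 124 bases before the start site. IFI44 carried 1 match that begins 18 bases before the start site, and GBP3 carried 1 that begins 2 bases after it. IFI35 and XAF1 carried no match in these windows, though each holds the repeats of the core with 1 base between them instead of 2. The GAS letters TTCNNNGAA, which read the same on both strands, were found in BST2 at 136 and 58 bases before the start site, the former overlapping the ISRE matches, in GBP3 at 15 and in IFI35 at 22 bases before it. The same cores in members of the other groups are shown with 10 bases on either side, since these 4 moved in both directions.
ISG15: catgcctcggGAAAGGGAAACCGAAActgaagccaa
EIF2AK2: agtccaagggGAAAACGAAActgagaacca
IFIT1: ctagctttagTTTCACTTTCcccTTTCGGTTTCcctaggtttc
IFIT5: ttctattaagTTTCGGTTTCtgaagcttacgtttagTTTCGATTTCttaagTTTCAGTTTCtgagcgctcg

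Promoter windows were given for 36 of the 46 members, DDX58 under its newer symbol RIGI. Of their 48 windows, 28 (58.3%) held the ISRE core, against 3.57% of the 35116 windows of all genes, and 12 (25%) held the GAS letters against 7.66%. Counted by gene, 24 members had an ISRE core in at least 1 window, of which 8 were higher, 11 lower, 4 not passed and 1 not tested. Of the 12 without one, 7 were higher, 2 lower, 2 not passed and 1 not tested. Of all tested genes 36.5% were higher and 35.9% lower. The median log2 fold change was -0.26 over the former and 0.33 over the latter, as a description of these libraries. These calls and medians are from the fit without offsets. With the GC and length offsets, DDX60, IFIT5, HERC5 and PARP9 of the former lost their lower call. IFI6 lost its higher call, ISG15 turned lower and ISG20 became lower. Of the latter, DDX58 lost its lower call and SAMHD1 became higher. Medians with the offsets are not given. The core searched for has 2 bases between its repeats. OAS1, DDX58, IFI16, CMPK2, IFI35, SP110 and XAF1, counted as without it, hold the same repeats with 1 base between them in at least 1 window. The medians therefore depend on this spacing and do not part members that have such repeats from members that lack them. Members with an ISRE core thus stand at both ends of the range, GBP3 among the rises and IFI44 and BST2 among the falls. A match is a description of the letters and does not show that a factor binds there.

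All 4 transcription factors of the list rose. STAT2 (ENSG00000170581, chromosome 12, 56341597 to 56360155, minus strand) had 689, 616 and 712 counts in WT and 885, 1009 and 934 in GFI1-KO. STAT2 averaged 712 ± 33.1 normalized counts in WT and 893 ± 57.7 in GFI1-KO (SD, n = 3 each; log2 fold change 0.33, standard error 0.06, adjusted p = 2.34e-05, edgeR). IRF9, the DNA-binding partner of STAT2, had 33, 34 and 22 counts in WT and 65, 63 and 71 in GFI1-KO (log2 fold change 1.00, adjusted p = 0.000292). IRF1, a factor that interferon gamma induces, had 390, 330 and 376 counts in WT and 671, 722 and 670 in GFI1-KO (log2 fold change 0.75, adjusted p = 1.52e-10). No GFI1-KO library of these genes lay within the WT range. IRF7, which drives interferon alpha genes, had 433, 411 and 422 counts in WT and 825, 853 and 957 in GFI1-KO (log2 fold change 0.90, adjusted p = 2.08e-12). The rise of IRF7, whose transcript has a GC content of 66.8%, was 0.08 (adjusted p = 0.263) with the GC and length offsets, whereas those of STAT2, IRF1 and IRF9 were 0.25, 0.62 and 0.69. IRF1 shares 22.9% of its exonic bases with the antisense gene IRF1-AS1 and IRF9 shares 23.9% with a gene on the same strand. Their 50-base words also occur in other genes at 20.1% and 20.3%.

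The sensors of foreign nucleic acid split by protein. The RNA helicases DDX58 (RIG-I) and IFIH1 (MDA5) bind viral double-stranded RNA and signal through MAVS, DDX60 assists them, and DHX58 (LGP2) regulates both. DDX58 had 317, 295 and 374 counts in WT and 288, 300 and 288 in GFI1-KO (log2 fold change -0.33, adjusted p = 0.00149, edgeR). IFIH1 had 343, 345 and 379 counts in WT and 312, 247 and 288 in GFI1-KO (log2 fold change -0.49, adjusted p = 2.15e-05). DDX60 had 341, 321 and 358 counts in WT and 256, 262 and 251 in GFI1-KO (log2 fold change -0.57, adjusted p = 7.95e-07). All 3 fell with no overlap of normalized counts, and the offsets for GC content and length changed each value. The log2 fold change became 0.05 (adjusted p = 0.616) for DDX58, -0.24 (0.0228) for IFIH1 and -0.06 (0.513) for DDX60.

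DHX58 and IFI16 rose instead. DHX58 (ENSG00000108771, chromosome 17, 42101404 to 42112733, minus strand) was near the count floor in WT, with 7, 9 and 6 counts, and had 17, 18 and 21 in GFI1-KO. DHX58 averaged 7.81 ± 1.92 normalized counts in WT and 17.7 ± 1.86 in GFI1-KO (SD, n = 3 each), with no overlap (log2 fold change 1.17, standard error 0.39, adjusted p = 0.00862, edgeR). With the GC and length offsets it was 0.65 (adjusted p = 0.149). IFI16 (ENSG00000163565, chromosome 1, 158999968 to 159055155, plus strand), a sensor of DNA in the nucleus and cytoplasm, was the most abundant sensor with 2642, 2486 and 2706 counts in WT and 3245, 3235 and 3230 in GFI1-KO. IFI16 averaged 2766 ± 68.6 normalized counts in WT and 3066 ± 26.1 in GFI1-KO (SD, n = 3 each; log2 fold change 0.15, standard error 0.03, adjusted p = 0.000441, edgeR). This small rise was 0.63 (adjusted p = 3.35e-14) with the offsets.

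The IFIT genes lie together on chromosome 10 between 89283694 and 89421001. The IFIT1 protein binds viral RNA that lacks the cap methylation of host mRNA. IFIT1, IFIT2 and IFIT3 rose and IFIT5 fell. IFIT2 had 67, 58 and 67 counts in WT and 126, 135 and 121 in GFI1-KO (log2 fold change 0.83, adjusted p = 1.91e-05, edgeR). IFIT1 had 62, 57 and 65 counts in WT and 102, 97 and 94 in GFI1-KO (log2 fold change 0.51, adjusted p = 0.00711). IFIT3 had 149, 139 and 156 counts in WT and 212, 232 and 234 in GFI1-KO (log2 fold change 0.45, adjusted p = 0.000401). In each of these the lowest GFI1-KO library stood above the highest WT library. IFIT2 and IFIT3 share 65 and 94 exonic bases with LIPA on the opposite strand. LIPA averaged 867 counts over the libraries, against 95.7 for IFIT2 and 187 for IFIT3. Whether its reads entered their counts was not tested. IFIT5 (ENSG00000152778, 89414586 to 89421001, plus strand), the most abundant of the family, had 843, 770 and 903 counts in WT and 654, 661 and 714 in GFI1-KO. IFIT5 averaged 888 ± 52.3 normalized counts in WT and 641 ± 27.3 in GFI1-KO (SD, n = 3 each; log2 fold change -0.47, standard error 0.06, adjusted p = 8.2e-08, edgeR). With the GC and length offsets IFIT5, at a GC content of 37.5%, was at -0.01 (adjusted p = 0.902), whereas IFIT1 rose by 0.79.

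Among the enzymes activated by double-stranded RNA, EIF2AK2 fell and OAS1 rose. EIF2AK2 (PKR, ENSG00000055332, chromosome 2, 37099210 to 37157065, minus strand) halts translation by phosphorylating eIF2-alpha. It had 4250, 4138 and 4150 counts in WT and 3228, 2991 and 3011 in GFI1-KO, with a wide gap between the groups. EIF2AK2 averaged 4429 ± 131 normalized counts in WT and 2915 ± 140 in GFI1-KO (SD, n = 3 each), 1.52-fold lower (log2 fold change -0.60, standard error 0.04, adjusted p = 9.6e-14, edgeR). With the GC and length offsets the fall was -0.08 (adjusted p = 0.0418). OAS1, OAS2 and OAS3 make 2′-5′ oligoadenylate, which activates RNase L, and adjoin on chromosome 12 between 112906777 and 113011723. OAS1 had 54, 73 and 59 counts in WT and 139, 153 and 105 in GFI1-KO (log2 fold change 0.93, adjusted p = 3.15e-05). OAS3, far more abundant, had 3032, 2965 and 3054 counts in WT and 3502, 3519 and 3575 in GFI1-KO. Its normalized counts did not overlap, yet it did not pass (log2 fold change 0.07, adjusted p = 0.0894), and in TPM its mean was the lower in GFI1-KO, at 94.4 against 99.6. OAS2 had 2, 0 and 4 counts in WT and 3, 1 and 1 in GFI1-KO. OASL had 0, 1 and 0 in WT and 3, 0 and 0 in GFI1-KO. Neither allows a comparison at this depth.

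ISG15, a ubiquitin-like modifier, rose while HERC5 and HERC6 fell. ISG15 (ENSG00000187608, chromosome 1, 1001138 to 1014540, plus strand) had 738, 745 and 742 counts in WT and 1351, 1284 and 1417 in GFI1-KO. ISG15 averaged 786 ± 35.1 normalized counts in WT and 1279 ± 58.8 in GFI1-KO (SD, n = 3 each), 1.63-fold higher (log2 fold change 0.70, standard error 0.05, adjusted p = 5.13e-12, edgeR). ISG15 has a GC content of 63.4%, and the offsets for GC content and length turned its log2 fold change to -0.12 (adjusted p = 0.0439). HERC5, the main human ligase for ISG15, had 878, 759 and 950 counts in WT and 789, 709 and 838 in GFI1-KO (log2 fold change -0.31, adjusted p = 0.00017). Its relative HERC6, next to it on chromosome 4, had 375, 276 and 331 counts in WT and 311, 272 and 282 in GFI1-KO (log2 fold change -0.34, adjusted p = 0.00163). With the offsets HERC5 was at -0.11 (adjusted p = 0.136) and HERC6 at -0.21 (0.0461). USP18, which removes ISG15 and dampens receptor signalling, had 256, 233 and 268 counts in WT and 307, 271 and 274 in GFI1-KO, with overlapping normalized counts (log2 fold change 0.01, adjusted p = 0.926).

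The PARP9-DTX3L pair, an ADP-ribosyltransferase and a ubiquitin ligase that act as one complex, fell together. DTX3L (ENSG00000163840, chromosome 3, 122564238 to 122575203, plus strand) had 1491, 1360 and 1355 counts in WT and 1231, 1245 and 1184 in GFI1-KO. DTX3L averaged 1485 ± 55.2 normalized counts in WT and 1156 ± 36 in GFI1-KO (SD, n = 3 each; log2 fold change -0.36, standard error 0.05, adjusted p = 1.08e-07, edgeR), and -0.11 (adjusted p = 0.0379) with the GC and length offsets. PARP9 had 757, 637 and 789 counts in WT and 680, 641 and 710 in GFI1-KO (log2 fold change -0.26, adjusted p = 0.000634), which the offsets turned to 0.05 (adjusted p = 0.531). These genes meet head to head and share 139 exonic bases on opposite strands.

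Of the enzymes acting on nucleotides and nucleic acids, SAMHD1 was the most abundant and did not pass. SAMHD1 (ENSG00000101347, chromosome 20, 36889773 to 36951901, minus strand) depletes deoxynucleotides. It had 1446, 1383 and 1417 counts in WT and 1629, 1685 and 1636 in GFI1-KO, or 1500 ± 27.4 and 1563 ± 30 normalized counts (SD, n = 3 each; log2 fold change 0.06, standard error 0.04, adjusted p = 0.201, edgeR), and 0.33 (adjusted p = 1.32e-07) with the offsets. RSAD2 (viperin), which makes a chain-terminating nucleotide, had 8, 7 and 15 counts in WT and 24, 25 and 14 in GFI1-KO, with overlapping groups. RSAD2 passed at a log2 fold change of 0.90 (adjusted p = 0.0378, edgeR) but not in DESeq2 (adjusted p = 0.0978). Without WT library 1 it was 0.74 (adjusted p = 0.143), without WT library 2 0.72 (0.135), without GFI1-KO library 1 0.80 (0.123) and without GFI1-KO library 2 0.76 (0.137). CMPK2, which overlaps RSAD2 by 351 exonic bases on the opposite strand and supplies its substrate, had 99, 89 and 106 counts in WT and 138, 120 and 141 in GFI1-KO (log2 fold change 0.28, adjusted p = 0.0667). Without GFI1-KO library 2 CMPK2 passed, at 0.35 (adjusted p = 0.038). ISG20, a nuclease for single-stranded RNA, had 67, 61 and 86 counts in WT and 41, 67 and 71 in GFI1-KO (log2 fold change -0.42, adjusted p = 0.0701). It passed without WT library 2, at -0.50 (adjusted p = 0.0464), without GFI1-KO library 3, at -0.55 (0.0399), and with the offsets, at -0.57 (0.0192).

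SP110, a component of nuclear bodies, rose. SP110 (ENSG00000135899, chromosome 2, 230167293 to 230225729, minus strand) had 189, 154 and 179 counts in WT and 320, 310 and 329 in GFI1-KO. SP110 averaged 184 ± 12 normalized counts in WT and 303 ± 8.15 in GFI1-KO (SD, n = 3 each; log2 fold change 0.72, standard error 0.09, adjusted p = 1.22e-07, edgeR). Of its 50-base words 17.8% occur in other genes. TRIM22, an antiviral ubiquitin ligase, had 9, 11 and 2 counts in WT and 14, 7 and 2 in GFI1-KO, and its pooled ratio of WT to GFI1-KO was 1.08 with a 95% counting interval of 0.575 to 2.03. Such intervals cover counting error only.

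Members that lie next to each other did not always move together. With gaps of at most 100000 bases, 24 of the 46 members fell into 9 clusters. All tested genes shared 1 direction of call in the GBP cluster (all 4 higher), the PARP9-DTX3L pair (both lower) and the HERC pair (both lower). In the IFIT cluster IFIT5 went against its neighbours, and in the OAS cluster OAS1 rose beside OAS3, which did not pass, and OAS2, which was too low to test. Neighbours share bases where they overlap and some sequence where they are paralogs. Whether this moved their counts was not tested.

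**Figure D3:**
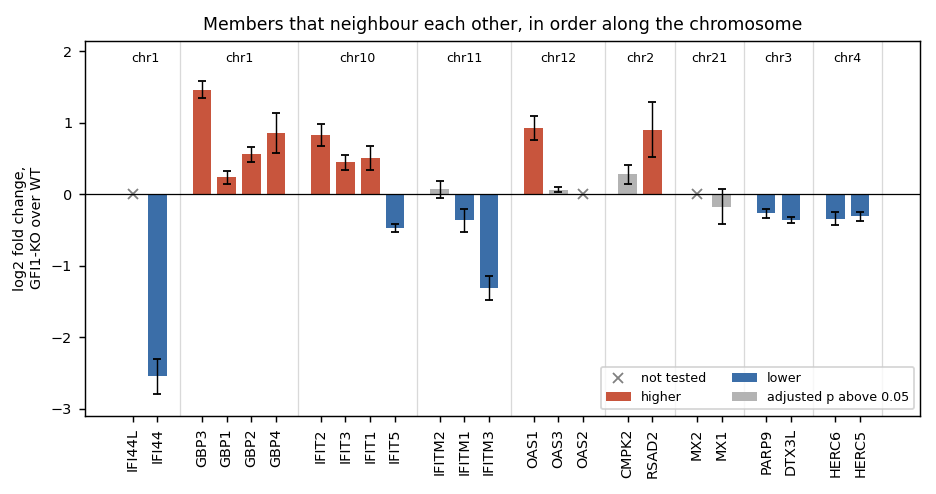
Bars are the log2 fold changes (GFI1-KO over WT, edgeR) of the 24 members that lie within 100000 bases of another member, in order along each chromosome, with standard errors as whiskers and grey crosses for members not tested. The 4 GBP genes are all above 0, IFIT5 is below 0 beside 3 genes above it, and IFITM3 and IFI44 reach -1.31 and -2.55.

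The ligands of the pathway were almost unread. Of 47 further genes of interferon induction and signalling, 21 encode interferons, and 16 of these had no count in any library, among them IFNB1 and IFNG. Apart from IFNE, no interferon gene exceeded 2 counts in a library. IFNE, an epithelial type I interferon, had 15, 14 and 14 counts in WT and 14, 25 and 26 in GFI1-KO, with overlapping groups (log2 fold change 0.43, adjusted p = 0.258, edgeR). The filter kept 26 of the 47 genes, 14 of them higher and 9 lower by the test, against 36.5% and 35.9% of all tested genes. The median of their log2 fold changes was 0.25. With the GC and length offsets 12 were higher and 2 lower. No share of all tested genes called with the offsets is given beside these counts.

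The receptors were all read, and their chains moved in both directions. IFNAR1, a chain of the type I receptor, had 2650, 2461 and 2578 counts in WT and 2301, 2231 and 2153 in GFI1-KO (log2 fold change -0.36, adjusted p = 2.57e-09, edgeR), and was at -0.05 (adjusted p = 0.206) with the offsets. Its partner IFNAR2 was low, with 33, 51 and 28 counts in WT and 40, 41 and 38 in GFI1-KO (log2 fold change -0.08, adjusted p = 0.792). Both interferon gamma receptor chains rose on the log2 scale. IFNGR1 rose by 0.25 (adjusted p = 0.000429), or 0.57 with the offsets, and IFNGR2 rose by 0.46 (adjusted p = 2.94e-08). IFNLR1, of the type III receptor, rose by 0.68 (adjusted p = 3.94e-05), or 0.39 with the offsets, whereas its partner IL10RB had 25, 28 and 34 counts in WT and 18, 16 and 27 in GFI1-KO (log2 fold change -0.67, adjusted p = 0.0459), and -0.38 (adjusted p = 0.28) with the offsets.

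Among the receptor-bound kinases, which pass the signal on, TYK2 rose and JAK1 and JAK2 fell. JAK1 had a log2 fold change of -0.13 (adjusted p = 0.00218, edgeR) and was at -0.01 (adjusted p = 0.778) with the GC and length offsets. JAK2 had a log2 fold change of -0.48 (adjusted p = 9.93e-06), which the offsets turned to 0.095 (adjusted p = 0.322). TYK2 had 1149, 1073 and 1191 counts in WT and 2029, 2141 and 2194 in GFI1-KO (log2 fold change 0.74, adjusted p = 3.37e-14), and 0.22 (adjusted p = 0.000104) with the offsets.

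Of the adaptors and kinases that induce interferon, 8 of 9 tested were higher without offsets, against 36.5% of all tested genes. With the GC and length offsets 6 of 9 were higher, a fit for which no such share is given. TRAF3 (log2 fold change 0.25) was at 0.026 (adjusted p = 0.532, edgeR) with the offsets and IKBKE (0.37) was turned to -0.17 (adjusted p = 0.113), while TLR3 passed narrowly (adjusted p = 0.0499) and not in DESeq2 (adjusted p = 0.101). The exception was TBK1, a kinase that phosphorylates IRF3, with a log2 fold change of -0.52 (adjusted p = 8.99e-10, edgeR), and 0.031 (adjusted p = 0.599) with the offsets. TMEM173 (STING), the adaptor of the DNA sensor cGAS, had 241, 176 and 178 counts in WT and 683, 659 and 693 in GFI1-KO (log2 fold change 1.61, standard error 0.09, adjusted p = 3.38e-15, edgeR). CGAS itself had 2, 6 and 8 counts in WT and 0, 1 and 5 in GFI1-KO and was not tested. TICAM1 (TRIF), the adaptor of TLR3, had 251, 173 and 179 counts in WT and 496, 596 and 633 in GFI1-KO (log2 fold change 1.36, standard error 0.10, adjusted p = 4.8e-12, edgeR). Of the 6 inhibitors SOCS3, which blocks JAK kinases, had the largest change, from 328, 284 and 350 counts in WT to 757, 787 and 745 in GFI1-KO (log2 fold change 1.09, adjusted p = 1.48e-13). With the offsets TMEM173 was at 1.16, TICAM1 at 0.64 and SOCS3 at 0.47, all with an adjusted p under the threshold.

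**Figure D4:**
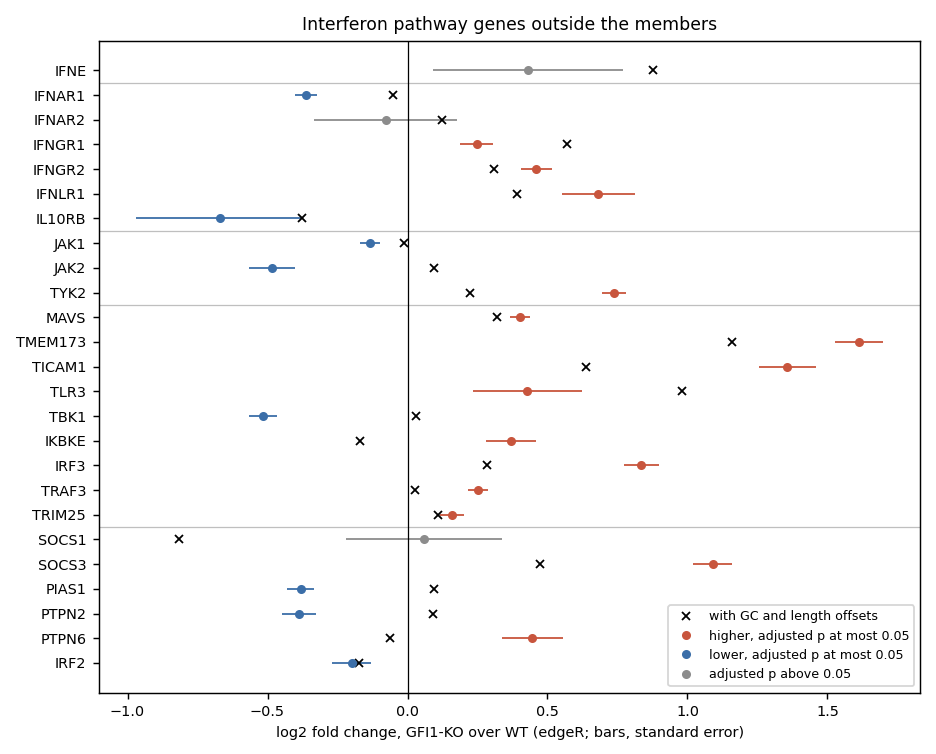
Points are log2 fold changes (GFI1-KO over WT, edgeR) with standard errors of 25 tested pathway genes that are not members, from ligands at the top to inhibitors at the bottom, and crosses are the values with offsets for GC content and gene length. TMEM173, TICAM1 and SOCS3 lie beyond 1, and the crosses of IFNAR1 and JAK1 lie near 0.

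A second list of 32 interferon-stimulated genes outside the members also held calls in both directions. The filter kept 26 of them, with 0.12 as the median log2 fold change. By the test 12 of the 26 were higher and 9 lower. For comparison, 36.5% of the 17514 genes tested rose and 35.9% fell by the same threshold. Whether the list differs from that background was not tested. The chemokine CXCL10, which draws T cells through CXCR3, had 494, 471 and 444 counts in WT and 1129, 1205 and 1163 in GFI1-KO (log2 fold change 1.15, adjusted p = 1.74e-15, edgeR). CXCL11, a ligand of the same receptor, had 81, 55 and 72 counts in WT and 191, 209 and 176 in GFI1-KO (log2 fold change 1.31, adjusted p = 4.41e-09). SAMD9L, a restriction factor of poxviruses, had 30, 46 and 36 counts in WT and 93, 93 and 106 in GFI1-KO (log2 fold change 1.22, adjusted p = 4.39e-06). TNFSF10 (TRAIL), a death ligand, had 19, 23 and 23 counts in WT and 1, 8 and 5 in GFI1-KO (log2 fold change -2.35, adjusted p = 4.55e-05). None of these 4 had overlapping groups, and with the GC and length offsets they were at 1.5, 1.82, 1.74 and -2.02.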

How the data were processed

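Poly-T-selected RNA of 3 WT and 3 GFI1-KO H1155 libraries was sequenced. The authors deposited raw counts per gene with each gene's length. The paper's methods name NovaSeq, FastQC, Hisat2 and featureCounts with GRCh38/hg38, whereas the submitters' processing notes name Bowtie2 and HTSeq with hg38. The annotation release, strand setting and treatment of multi-mapping reads are not given in the sources used here. RNA-Seq of A549 cells was not analysed here.

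Counts were tested with edgeR 4.0.16 in R 4.3.3 (TMM factors, filterByExpr, quasi-likelihood F test, Benjamini-Hochberg adjustment over the 17514 tested genes, adjusted p of at most 0.05, no fold change minimum). Standard errors were derived from the log2 fold change and F. Normalized counts were scaled by TMM to the mean effective size of the libraries. TPM was computed from counts and deposited lengths. GC content came from the longest GENCODE v44 transcript (99.4% of tested genes) and entered as offsets from splines of 5 degrees of freedom, with log length. A gene was called uncertain where over 10% of its 50-base words occur in other genes. Counting intervals are exact binomial intervals at 95%. Figures were drawn with Python 3.11.15 and matplotlib 3.10.9.

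Same-numbered libraries did not deviate together (r of -0.0036, 0.0166 and 0.0235), so no pairing was used. No library was a copy of another, since replicates varied by at least 2.30 times the Poisson variance. Nothing states that the 3 libraries of a group are separate cultures, so p-values measure the spread between libraries, which may be technical. The alternatives were DESeq2 1.42.0, limma-voom (limma 3.58.1), other size factors, other filters, a replicate block, GC and length offsets, each library left out, an adjusted p of at most 0.01 and, added after seeing the data, the members without shared sequence. The steps were tested on simulated data.

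The members and lists were chosen with earlier results of these data known. Full statistics are given for members with an adjusted p of at most 0.05, a mean normalized count of at least 10 and a log2 fold change of at least 1 in size, and for the member with the highest mean normalized count of each role group. All other members are named with counts. Pathway genes named are JAK1, TYK2, the receptors and those past the same fold. IFNE, CGAS, JAK2, TBK1, TRAF3, IKBKE, TLR3 and the cell type markers were chosen after their values were seen. Some genes of the lists are counted but not reported here by name.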

Additional observations from a re-analysis of the deposited data

How the results depend on the processing

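The counts of members called, 19 higher and 13 lower, ranged from 16 to 19 higher and from 11 to 14 lower over the alternatives run on all members, and from 17 to 19 and from 12 to 14 with 1 library left out. With the replicate number as a block, which the data do not support as a pairing, 18 members were higher and 12 lower. RSAD2 (adjusted p = 0.0563) and IFITM1 (0.0555) lost their call under the block, and no other member did. DESeq2 called 17 higher and 12 lower, all of them among the edgeR calls. Leaving out the 9 members that share sequence with other genes left 15 higher and 11 lower of 32 tested, with fewer members as the cause. The offsets for GC content and length changed most. Under the offsets alone and with the replicate block, the pathway genes called lower dropped from 9 to 2. For these fits no share over all tested genes is given. The direction turned for DDX58 (0.052 and, with the block, 0.055), PARP9 (0.046 and 0.048), ISG15 (-0.12 and -0.12), IFI6 (-0.12 and -0.12) and IFITM2 (-0.46 and -0.48). Of the members that did not pass, MX1 (0.21) and IFI27 (-0.033) also changed sign under the offsets. IFITM2 ranged from -0.20 to 0.23 with 1 library left out. The cause was not tested. Depth limits MX2, OASL, XAF1 and OAS2, for which no difference was detectable.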
